A study of Mus musculus with 12 samples.

Results

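The S100 genes examined here are 9 members of a family of small calcium-binding proteins: S100a1, S100a4, S100a6, S100a10, S100a11, S100a13, S100a14, S100a16 and S100b. They are 9 of the 17 S100 genes, and of the 32285 genes in all, in the gene lists of the data. The members were chosen by name around S100a16, which had been seen at a higher level in both knockout lines. The difference between knockout and control tumours in S100a16 in line cells was therefore selected on, and in these cells that contrast is given for all members as a description without a p-value. The data are single-cell RNA libraries, counted at the 5′ end of transcripts, from mouse tumours of SCC35 lines. The series concerns melanoma rejection. Control lines 15 and 18 are labelled as Mif KO control, and lines 19 and 24 as Mif KO. The product of Mif is a secreted cytokine, macrophage migration inhibitory factor. Samples of day 0, 6, 10 and 16 were marked with hashtag antibodies, so that each cell could be traced to its sample. All samples are called tumours here, although no day 0 sample reached the minimum of 20 cells in any host class. The labels name no strain, age, further allele or treatment, do not say what day 0 stands for, and do not say whether a line is a single clone. Each line was run in a library of its own. Of 2 mixed libraries, the first held lines 15 and 19 with the day 16 tumour of line 18, and the second held line 24 with the day 6 and day 10 tumours of line 18. Mif KO and control tumours shared a library only there, and lines 19 and 24 never did. A further 3 tumours labelled WT, in the second mixed library, have no group that could be set against these lines, and their values are given as such.

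S100 proteins carry a pair of EF-hand calcium-binding loops and mostly work as dimers. On binding calcium they open a surface that takes up partner proteins such as annexins and myosin, and some are released from cells to act on receptors such as RAGE and TLR4. In tumours several members are known from cell motility, and S100B is a clinical marker of melanoma. Most of the genes lie in a cluster, on chromosome 3 in the mouse.

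The line compartment is the set of non-immune cells without the markers of fibroblasts or endothelium as their leading genes. It held 57360 cells of 42 tumours in the 4 lines, 21 Mif KO and 21 control, with 199 to 3259 cells and 1889345 to 26050390 unique molecular identifiers (UMIs, counted transcripts) per tumour. Levels are CPM, a gene's UMIs scaled to the same total in every tumour and cell class, and values are mean ± SD over tumours. Mif checked the labels, at 1778 to 3107 CPM in the control tumours and 41.5 to 715 CPM in the Mif KO tumours. Its level in the knockout moved with the library, at means of 49.3 CPM in line 19's own library and 253 CPM in the mixed one, and of 356 and 709 CPM for line 24. The cause of that shift was not tested. Of 7 melanocyte markers, summing to 6.70 to 22.9 CPM in control and 8.38 to 20.01 CPM in Mif KO tumours, Mitf had most of the UMIs at 13.5 CPM, Tyr and Tyrp1 had 0 UMIs and Dct had 1 UMI. The 7 fibroblast markers summed to 7.34 to 575 CPM in control tumours (median 83.0) and 19.7 to 542 CPM in Mif KO tumours (median 209). Most of this was Col3a1, at 154 CPM or 3.91% of its level in fibroblast-like cells, while Dcn stood at 3.37 CPM or 0.0892%. The 8 endothelial markers summed to 36.6 to 78.9 CPM in Mif KO and 12.6 to 27.9 CPM in control tumours, without overlap, while Pecam1 stood at 0.0589% of its level in endothelial-like cells. Sums of pericyte and neutrophil markers had medians of 5.52 and 7.41 CPM in control and 18.4 and 25.4 CPM in Mif KO tumours. Counts of 3 pairs of day 0 tumours of the same line differed with a chi-square per degree of freedom of 1.34 to 1.73, against 2.34 to 16.5 for 11 pairs of other days within a library and 3.21 to 36.3 for 23 pairs between libraries. No label says that tumours came from separate animals, so p-values measure only the spread between these tumours, which may be technical.

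S100a16 lies on chromosome 3 from 90537254 to 90543151 on the plus strand (GRCm38, GENCODE M21). It encodes a widely made S100 protein known from fat cell formation. S100a14, which encodes a protein known mainly from epithelia, lies 8.42 kb before it. S100a13 and S100a1 lie further along the same side, transcribed away from each other with only 0.042 kb between them. S100a13 is known for the release of FGF1 from cells, and S100a1 for calcium handling in muscle. RefSeq gives S100a16 a pair of start sites. Their promoters, from 250 bases before to 50 after the start, are shown with those of S100a13 and S100a1. No promoter was matched for S100a14. Capitals mark, on either strand, the TATA box letters TATAAA, the NF-Y letters CCAAT, the Sp1 letters GGGCGG and the AP-1 letters TGANTCA.
S100a16, first start, chr3:90537004-90537303, plus strand, GRCm38.p6: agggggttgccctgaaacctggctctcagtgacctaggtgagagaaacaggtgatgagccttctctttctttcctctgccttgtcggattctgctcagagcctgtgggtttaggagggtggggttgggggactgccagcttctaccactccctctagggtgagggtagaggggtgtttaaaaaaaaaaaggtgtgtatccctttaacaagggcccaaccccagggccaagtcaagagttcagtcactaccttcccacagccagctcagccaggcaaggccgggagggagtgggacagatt
S100a16, second start, chr3:90540896-90541195, plus strand, GRCm38.p6: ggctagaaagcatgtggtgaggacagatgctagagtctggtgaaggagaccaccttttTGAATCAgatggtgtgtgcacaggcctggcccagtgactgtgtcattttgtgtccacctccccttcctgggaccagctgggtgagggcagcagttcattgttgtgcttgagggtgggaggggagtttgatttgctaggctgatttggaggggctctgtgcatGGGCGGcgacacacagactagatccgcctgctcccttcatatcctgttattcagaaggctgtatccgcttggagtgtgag
S100a13, chr3:90514185-90514484, plus strand, GRCm38.p6: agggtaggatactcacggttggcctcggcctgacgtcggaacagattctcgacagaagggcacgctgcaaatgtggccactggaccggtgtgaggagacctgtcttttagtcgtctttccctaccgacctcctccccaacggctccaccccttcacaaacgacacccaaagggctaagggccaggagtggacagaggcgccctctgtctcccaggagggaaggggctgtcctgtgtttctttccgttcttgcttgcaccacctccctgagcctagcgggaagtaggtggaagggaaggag
S100a1, chr3:90514281-90514580, minus strand, GRCm38.p6: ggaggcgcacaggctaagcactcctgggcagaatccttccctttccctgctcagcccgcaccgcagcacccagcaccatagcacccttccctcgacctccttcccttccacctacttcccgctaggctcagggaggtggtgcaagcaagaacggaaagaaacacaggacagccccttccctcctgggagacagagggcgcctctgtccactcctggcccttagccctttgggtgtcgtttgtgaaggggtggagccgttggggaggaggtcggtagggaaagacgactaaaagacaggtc
The first S100a16 promoter held none of the 4 marked motifs, had a GC content of 55% and held 2 CpG. The second held 1 GGGCGG match and 1 TGANTCA match, with a GC content of 54.3% and 4 CpG. The S100a13 and S100a1 windows overlap on opposite strands, held none of the 4 motifs, and held 14 and 11 CpG. Over 32851 promoters of the same length the median was 7 CpG and 52.7% GC, and the Sp1 letters stood in 35.7%, the AP-1 letters in 7.81%, the TATA box letters in 13.6% and the NF-Y letters in 37.4%. CANNTG, the E-box letters, stood in 72.3% of all promoters, 1 time in the first S100a16 window and 4 times in the second. A match is a description of letters, and the files do not tell from which S100a16 start the UMIs came. Promoter sequences were matched for 7 of the 9 members.

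**Figure D1:**
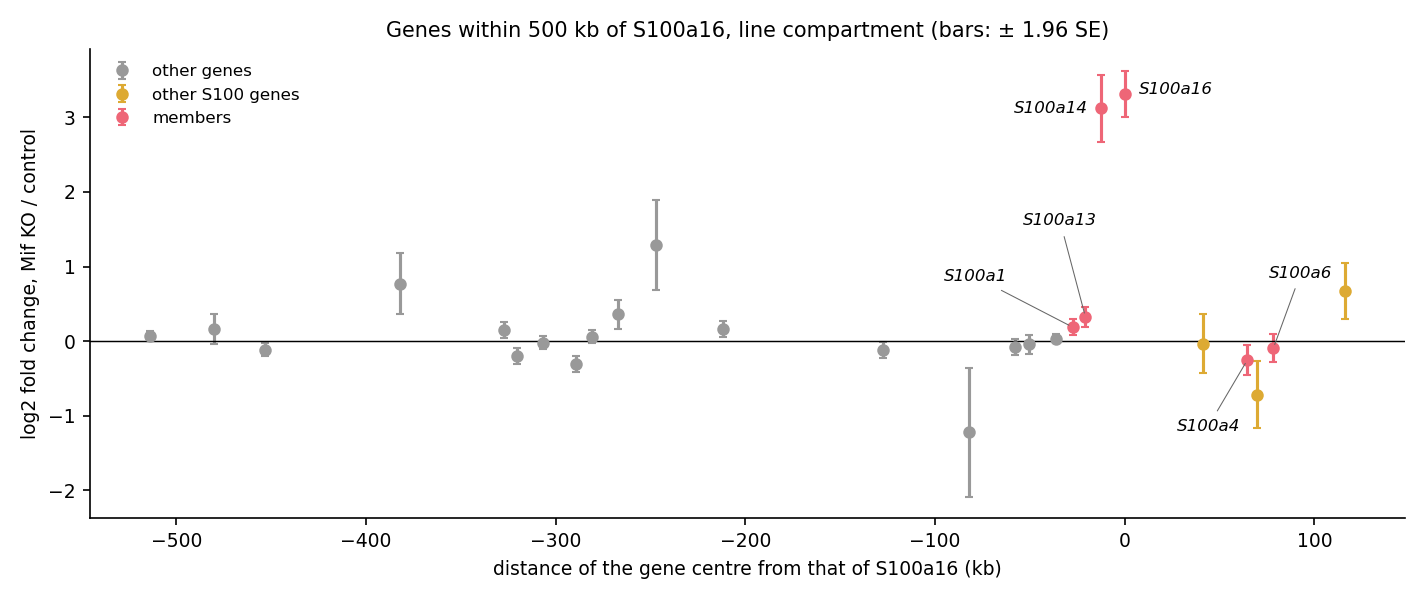
Genes within 500 kb of S100a16, by the distance of the gene's centre from that of S100a16 in kb on the x axis and the log2 fold change of Mif KO against control tumours in the line compartment on the y axis. S100a16 and S100a14, at 3.32 and 3.12, stand above the other genes tested in the window, and S100a13 and S100a1 lie near 0.

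In the line compartment, S100a16 stood at 98.0 ± 35.8 CPM in the Mif KO tumours (SD, n = 21) and at 11.4 ± 7.80 CPM in the control tumours (SD, n = 21), from 23120 and 2709 UMIs. In Mif KO its lowest, median and highest values were 43.2, 98.4 and 177 CPM. The control tumours ran from 2.77 over a median of 8.33 to 26.8 CPM. Every Mif KO tumour lay above every control tumour. The fitted log2 fold change was 3.32 (SE 0.16), or 9.97-fold. In the first mixed library the tumours of Mif KO line 19 held 65.7 to 88.4 CPM and the control tumours of the same library 6.76 to 26.8 CPM. In the second, those of Mif KO line 24 held 100.4 to 155 CPM and the pair of line 18 tumours 5.69 and 15.0 CPM. The groups were thus apart within each library that held both. By line the means were 10.6 CPM in control line 15, 12.3 in control line 18, 76.9 in Mif KO line 19 and 121 in Mif KO line 24. The endothelial, fibroblast, pericyte and neutrophil marker sums given above had higher medians in Mif KO tumours as well, and their part in the S100a16 difference was not tested. The groups did not overlap in 18 of the 12598 genes tested, which is 0.143% of them.

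S100a14 was low everywhere, at 1.47 ± 0.680 CPM in Mif KO (SD, n = 21) and 0.176 ± 0.142 CPM in control tumours (SD, n = 21), from 407 and 41 UMIs. Mif KO tumours ran from 0.190 to 2.65 CPM and control tumours from 0 to 0.563 CPM, and 18 of the 21 Mif KO tumours lay above every control tumour. Within each day the groups did not overlap, and the share of all genes apart within a day is not given here. The fitted log2 difference was 3.12 (SE 0.23), close in size to that of S100a16, although the level of S100a14 was far lower.

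The pair further along the chromosome differed less. S100a13 stood at 151 ± 34.8 CPM in Mif KO and 125 ± 30.4 CPM in control tumours (SD, n = 21 each), a log2 difference of 0.32 (SE 0.071). Its lowest, median and highest values were 80.2, 145 and 212 CPM in Mif KO and 74.7, 124 and 184 CPM in control, and the groups overlapped. S100a1 stood at 108 ± 18.7 and 94.6 ± 10.8 CPM, a log2 difference of 0.19 (SE 0.053). At day 0 alone S100a1 did not overlap, with means of 128 CPM in 4 Mif KO and 90.1 CPM in 3 control samples. The share of all genes apart on that day is not given here. At day 16 the means of S100a1 were 99.6 and 101 CPM. Only S100a1, S100a14 and S100a16 had both Mif KO line means above both control line means.

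The members with the highest levels were S100a6, S100a4, S100a11 and S100a10, in that order, at 13088 ± 3697, 4448 ± 1305, 3495 ± 692 and 3086 ± 1015 CPM over all 42 tumours (SD). S100a6 is also called calcyclin, S100a4 is known as metastasin and binds non-muscle myosin, S100a11 pairs with annexin A1, and S100a10 forms a complex with annexin A2. The ranges of S100a4, S100a11 and S100a10 overlapped. CPM values are per transcript counted at its 5′ end and so are not scaled by gene length. S100a10 stood at 2707 ± 735 CPM in Mif KO and 3464 ± 1128 CPM in control tumours (SD, n = 21 each), a log2 difference of -0.31 (SE 0.10). The corresponding log2 differences were -0.25 (SE 0.10) for S100a4, -0.18 (SE 0.068) for S100a11 and -0.10 (SE 0.096) for S100a6. All 4 overlapped between the groups over all days. Day 0 held only 4 Mif KO and 3 control samples, and the share of all genes apart on that day is not given here. At day 0 alone every Mif KO tumour lay below every control tumour for S100a4 (1232 to 2053 against 2863 to 3486 CPM), S100a6 (7430.2 to 8921 against 11040.2 to 13948 CPM) and S100a11 (2224 to 2360.2 against 3485 to 3634 CPM), while the day 6 means of S100a4 were 5058 and 5041 CPM. Without Mif KO line 24 the S100a4 difference was 0.02, and without control line 18 the S100a10 difference was 0.01, both of the opposite sign. S100b, the melanoma marker, was near 0 with 77 UMIs in Mif KO and 24 in control tumours, and was too low to be tested. In this contrast, which chose S100a16 and is read only as a description, edgeR called 7 of the 8 members and 49.7% of all genes. With 1 sum per line, edgeR called none of the members and 0 of 15127 genes, 1171 of which had an unadjusted p under 0.05.

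**Figure D2:**
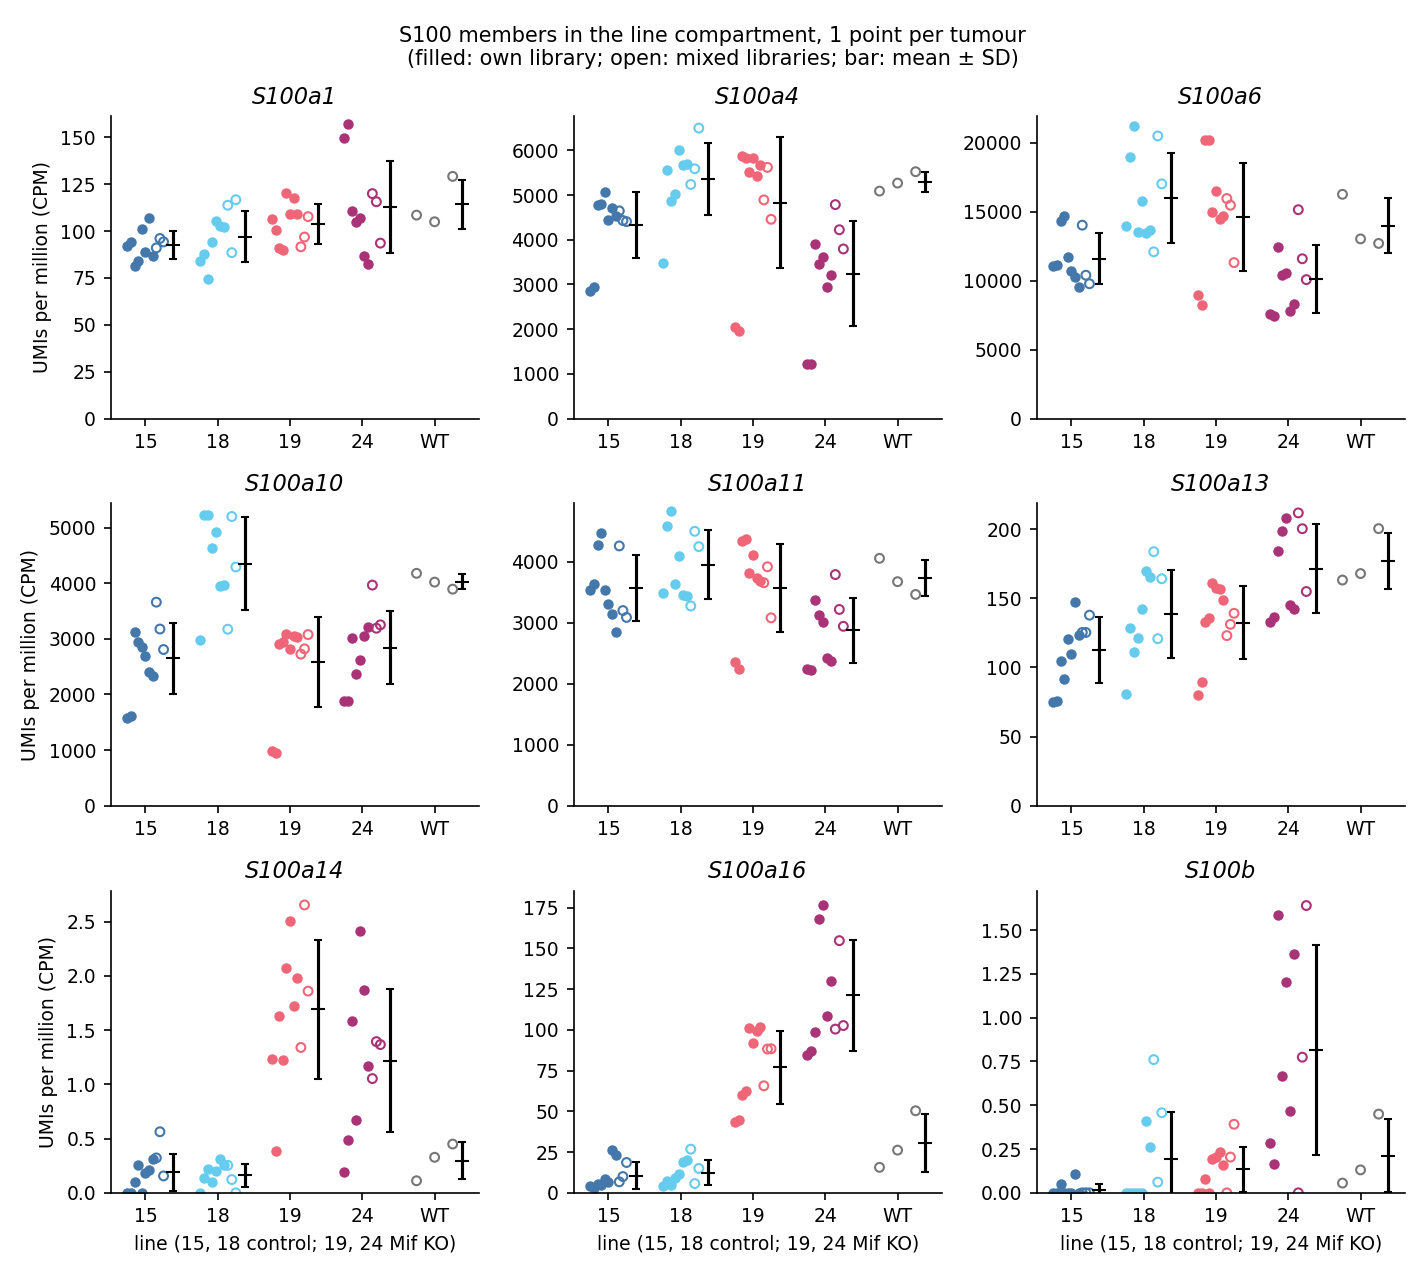
Level of each member in the line compartment in CPM, on a linear axis, with 1 point per tumour. Tumours are grouped by line, WT included, with the mean and SD of each line. The Mif KO points of S100a16 lie above all control points, while those of the abundant members overlap.

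The lines also differed within each group, a contrast that did not choose the members. Mif KO line 24 against Mif KO line 19 changed 5 of the 8 members tested (edgeR, Benjamini-Hochberg adjusted p under 0.05), where 56.9% of all genes passed. Lines 19 and 24 never shared a library, so that line and library cannot be told apart in this contrast. S100a16 was higher in line 24, by 0.61 on the log2 scale (SE 0.17, adjusted p = 0.00191), and S100a13 by 0.33 (SE 0.079, adjusted p = 0.000431). S100a4, S100a6 and S100a11 were lower in line 24, by log2 differences of -0.64, -0.55 and -0.35 (adjusted p from 1.16e-06 to 0.000259). S100a4 stood at 4829 ± 1463 CPM in line 19 (SD, n = 11) and 3239 ± 1176 CPM in line 24 (SD, n = 10). Line 18 against line 15 of the controls changed 2 of 8 members, against 25.2% of all genes. These were S100a10, higher in line 18 by 0.62 (SE 0.10, edgeR adjusted p = 1.06e-05), and S100a6, by 0.37 (SE 0.089, edgeR adjusted p = 0.00160). S100a16 differed by 0.13 between the control lines, with a 95% interval of -0.25 to 0.50 (edgeR adjusted p = 0.685). The S100a10 difference between the control lines was larger in size than that between Mif KO and control tumours.

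The tumours of later days held more S100a16. Control tumours of day 0, 6, 10 and 16 averaged 3.60, 5.68, 10.2 and 22.3 CPM, and Mif KO tumours 64.9, 77.4, 130 and 105 CPM. In control line 15 the day 0 tumours held 2.77 and 3.91 CPM, and those of day 16 held 18.6, 23.5 and 26.2 CPM. In control line 18 the day 0 tumour held 4.12 CPM, and those of day 16 held 18.8, 19.9 and 26.8 CPM. Day 6 and day 16 did not overlap in either control line. How many of all genes are apart between these days within a line is not given here. Mif KO line 19 held 43.2 and 44.8 CPM at day 0, 59.8 to 65.7 CPM at day 6 and 88.4 to 102 CPM at day 16. In Mif KO line 24 the values were 84.3 and 87.3 CPM at day 0, 98.4 and 100.4 CPM at day 6, 155 to 177 CPM at day 10 and 103 to 130 CPM at day 16. Line 24 was highest at day 10, and its day 6 and day 16 values lay close together.

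Day 16 against day 6, averaged over the lines, raised S100a16 by 1.15 on the log2 scale (SE 0.17, edgeR adjusted p = 3.84e-06), or 2.21-fold. S100a6, S100a11 and S100a10 fell, by log2 differences of -0.62, -0.47 and -0.27 (edgeR adjusted p = 9.41e-07, 1.52e-05 and 0.0286). These were 4 of 8 members called, where 38.5% of all genes were. In the mixed libraries alone the S100a16 difference was 0.88, with an edgeR adjusted p of 0.0618, and fewer members were called there. Calls over all genes in that fit are not given here. The summed fibroblast markers of the compartment also rose with the day, from a median of 9.04 to 262 CPM in control and from 40.5 to 274 CPM in Mif KO between day 0 and day 16. Their part in the S100a16 rise was not tested.

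The rise was proportionally larger in the control tumours. The change from day 6 to day 16 in Mif KO minus that in control was -1.47 for S100a16 on the log2 scale (SE 0.18, edgeR adjusted p = 1.13e-06). On the CPM scale the group means rose by 16.6 CPM in control, or 3.93-fold, and by 27.7 CPM in Mif KO, or 1.36-fold. By line the rise was 17.2 CPM or 4.07-fold in line 15, 16.1 CPM or 3.78-fold in line 18, 33.8 CPM or 1.54-fold in line 19 and 14.2 CPM or 1.14-fold in line 24. The folds of both Mif KO lines were below those of both control lines, while in CPM only line 19 rose by more than the control lines. The ratio of Mif KO to control means was 18.0 at day 0, 13.6 at day 6, 12.8 at day 10 and 4.71 at day 16. The same difference of changes was -0.43 for S100a13 (SE 0.13, edgeR adjusted p = 0.0219), whose means went from 114 to 155 CPM in control and from 157 to 148 CPM in Mif KO. It was 0.50 for S100a10 (SE 0.16, edgeR adjusted p = 0.0333). For S100a10 the control means of day 6 and 16 were 4228 and 3107 CPM, and the Mif KO means 3114 and 3115 CPM. The 3 calls were of 9 members tested, where 10.6% of all genes were called. Without control line 18, or in either kind of library alone, S100a16 was the 1 member called, at -1.60 to -1.42 (edgeR adjusted p up to 0.0350). The share of all genes called in each of these fits is not given here.

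**Figure D3:**
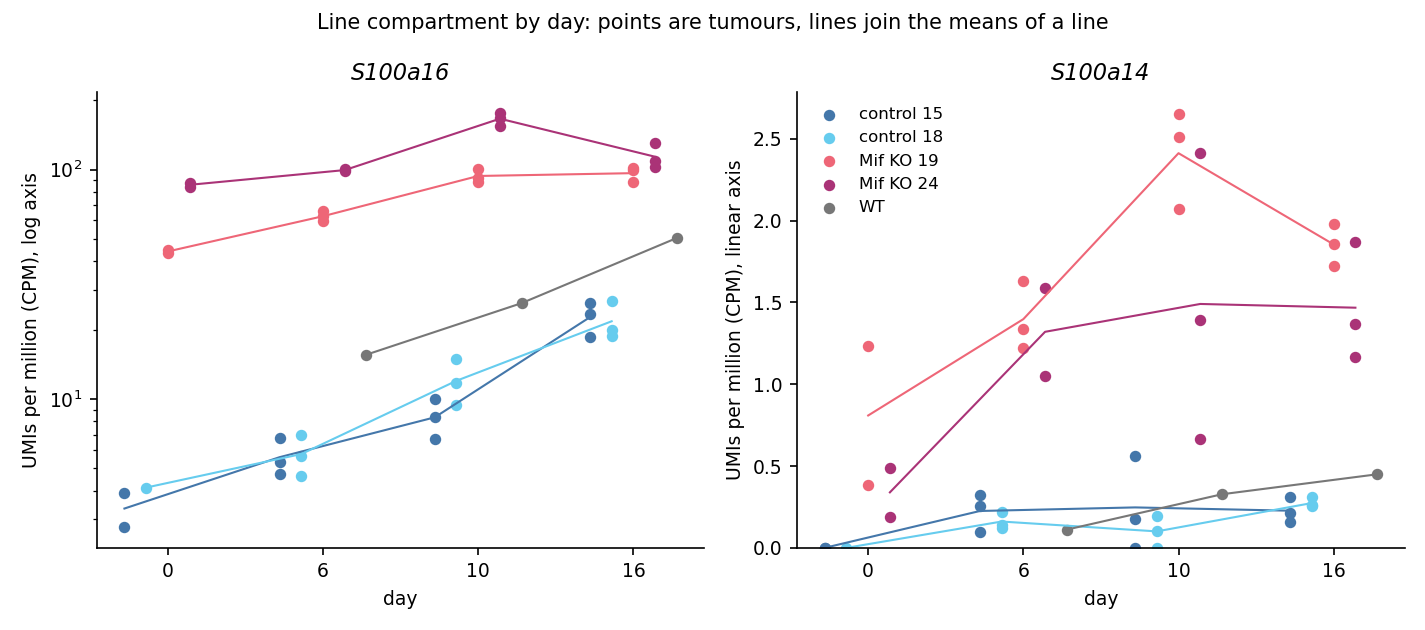
Level of S100a16 (log axis) and S100a14 (linear axis) in the line compartment in CPM by day. Points are tumours, and lines join the means of each line, WT included. S100a16 rose from 3.60 to 22.3 CPM in control tumours while Mif KO tumours stood between 64.9 and 130 CPM on average.

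Between day 0 and day 6 most members rose. S100a4 was raised by 1.26 on the log2 scale (SE 0.12, edgeR adjusted p = 2.53e-11), S100a10 by 1.20 (SE 0.12, edgeR adjusted p = 1.01e-10) and S100a6 by 0.84 (SE 0.10, edgeR adjusted p = 8.18e-09). S100a11 and S100a13 rose by 0.66 and 0.64 (edgeR adjusted p = 1.29e-07 and 2.34e-07), and S100a14 by 1.79 (SE 0.38, edgeR adjusted p = 0.000151). The mean of S100a4 went from 1617 to 5058 CPM in Mif KO tumours and from 3100 to 5041 CPM in control tumours. S100a16 stood at a difference of 0.43 with a 95% interval of 0.01 to 0.84 (edgeR adjusted p = 0.0883), and passed with DESeq2 (adjusted p = 0.0433). The 6 calls of 8 stand beside 50.4% of all genes called. The median of the 8 members was 0.75, against -0.01 over all genes. Day 0 rested on 7 samples, all from the libraries of a single line, and none had 20 cells of any host class.

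**Figure D4:**
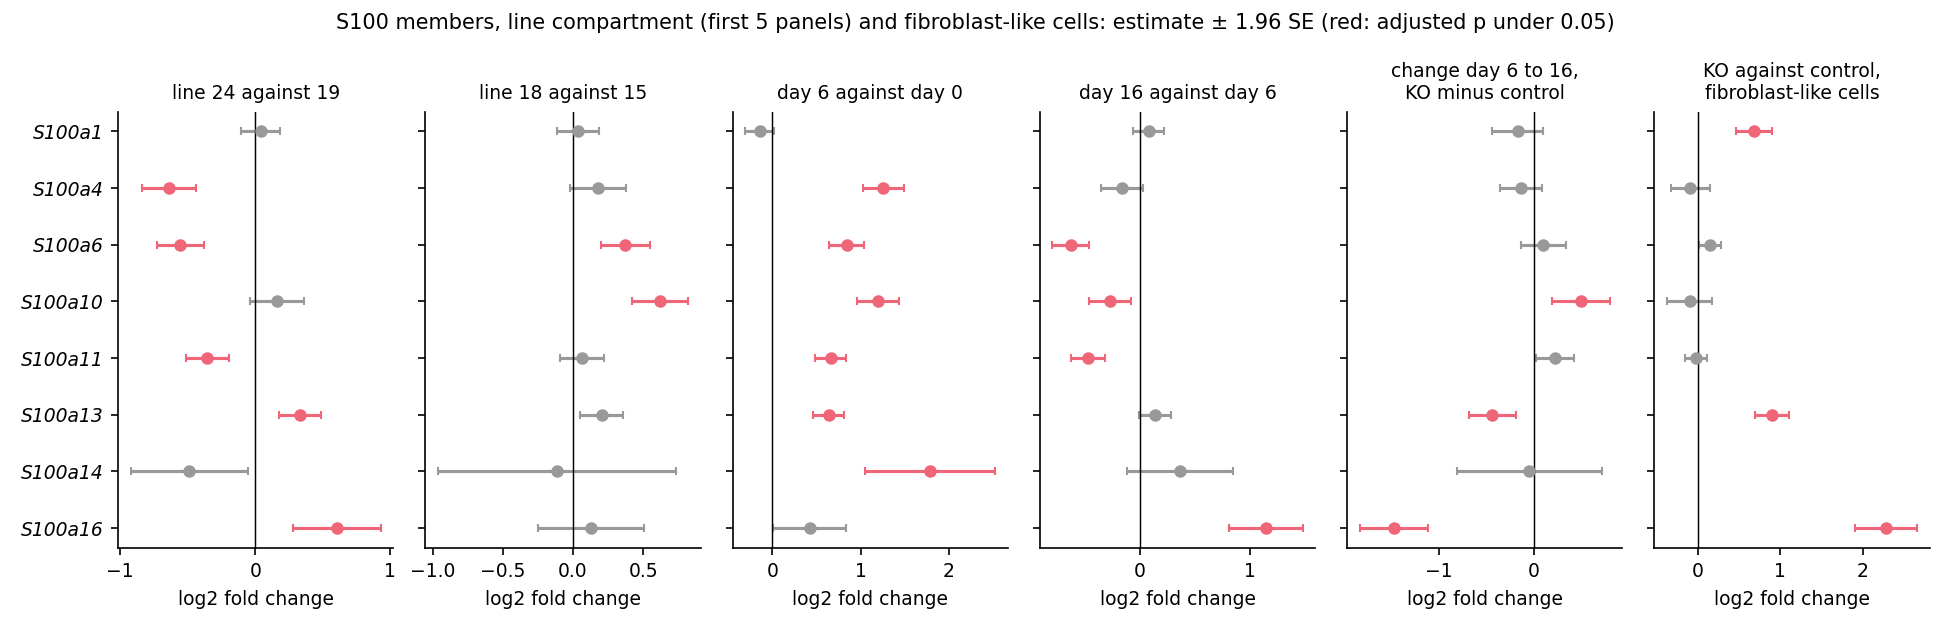
Fitted log2 fold change of each member apart from S100b, with its 95% interval, in 6 contrasts. The first are line 24 against 19, line 18 against 15, and day 6 against day 0, in the line compartment. The others are day 16 against day 6 and the difference in day change there, and Mif KO against control in fibroblast-like cells. S100a16 lies at 1.15 for day 16 against day 6, at -1.47 for the difference in day change and at 2.29 in fibroblast-like cells.

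Genes that work with the S100 proteins were taken from lists. Of 15 partner genes, all tested, 10 rose and 1 fell between day 0 and day 6 (edgeR, where 50.4% of all genes were called), with a median log2 difference of 0.32 against -0.01 over all genes. Anxa2, the partner of S100a10, rose by 0.93, Anxa1, the partner of S100a11, by 0.56, and Ahnak, a large scaffold bound by S100a10 with annexin A2, by 0.52. Stk38, a kinase bound by S100B, was the 1 that fell, at -0.43. Between Mif KO and control tumours, where 49.7% of all genes were called, 4 partners were higher, among them Ahnak at 0.36 and Myh9, the myosin bound by S100a4, at 0.23. The 7 that were lower included Anxa11 at -0.76, Anxa2 at -0.46 and Anxa1 at -0.37. From day 6 to day 16, where 38.5% of all genes were called, a share above that of the partners, 1 rose and 4 fell, among them Cacybp, the calcyclin-binding protein, at -0.25. Of the 7 receptor genes 5 were tested between Mif KO and control tumours, and Alcam at 1.16, Mcam at 0.62 and Bsg at 0.27 were higher while Tlr4 at -0.31 was lower. Alcam and Mcam differed more between Mif KO lines 24 and 19, at 3.14 and 1.75, than between Mif KO and control tumours. Among the 8 other S100 genes in the gene lists 3 were tested, and between Mif KO and control tumours S100a7a was higher at 0.67 and S100a5 lower at -0.71. Both were low, with S100a7a means of 1.17, 0.874, 1.21 and 2.07 CPM in lines 15, 18, 19 and 24. S100a5 averaged 0.818, 1.36, 0.786 and 0.271 CPM in the same order. For both genes Mif KO line 19 lay close to control line 15. Of 23 other genes within 500 kb of S100a16, 17 were tested, with 5 higher and 4 lower, a share near the 49.7% of all genes called, and a median of 0.03 against 0.01 over all genes.

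S100a16 was not a marker of the line cells alone. Since its level differed between the groups, classes are ordered within each group. In Mif KO tumours fibroblast-like cells averaged 226 CPM, the line compartment 98.0 CPM, and T-cell-like and macrophage/monocyte-like cells 10.45 and 7.04 CPM. In control tumours the same classes averaged 48.0, 11.4, 1.63 and 3.08 CPM. Endothelial-like cells were measured in 1 Mif KO and 2 control tumours (188 ± 74.8 CPM, SD, n = 3, 73 cells) and neutrophil-like cells in 2 Mif KO and 7 control tumours (16.3 ± 20.1 CPM, SD, n = 9), so that both stay out of the order. Mature dendritic-like and osteoclast-like cells had pooled means of 4.69 and 2.91 CPM, each with an SD above its mean. S100a13 was highest in T-cell-like cells, at 284 ± 64.8 CPM, a range that overlapped the 272 ± 79.2 CPM of endothelial-like cells, and S100a1 in osteoclast-like cells, at 141 ± 24.0 CPM. S100a6 averaged 13088 CPM in the line compartment and 12186 CPM in neutrophil-like cells. S100a11 averaged 3929 CPM in neutrophil-like, 3592 in mature dendritic-like and 3495 in line cells, with overlapping ranges, and with TMM scaling the order was 2969, 3604 and 3381 CPM, so that no class ranks first under both scalings. S100b was highest in fibroblast-like cells, at 6.31 ± 7.35 CPM. These cells were sorted live from dissociated tumours, and free RNA adds UMIs to cells that do not make a transcript. As a reference, 20 genes were taken that were lowest in immune cells relative to line cells, with both groups pooled. In T-cell-like cells they stood at 7.99% to 14.5% of the line level, and S100a16 stood at 11.1% in Mif KO and 18.3% in control tumours, the latter from 5 UMIs. In the unnamed low-UMI cells the 20 genes stood at 8.02% to 15.2%, and S100a16 at 9.64 CPM against 91.8 CPM in the line compartment in Mif KO tumours and at 26.3% in control tumours. In macrophage/monocyte-like cells they stood at 4.15% to 8.28%, and S100a16 at 9.94% in Mif KO and 22.4% in control tumours, from 40 and 35 UMIs, above all 20 genes. In Mif KO tumours the S100a16 level of the T-cell-like and low-UMI cells lay within the pooled range of these genes. That of the macrophage/monocyte-like cells lay above it. The ranges pool both groups, while the S100a16 values are per group. The genes were also picked for low levels in immune cells, macrophage/monocyte-like and T-cell-like cells among them. These positions therefore do not tell whether the cells make S100a16. In fibroblast-like cells the 20 genes stood at 15.9% to 506% of the line level, with a median of 66.7%, and S100a16 at 234% in Mif KO and 405% in control tumours, so that they give no background for that class.

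**Figure D5:**
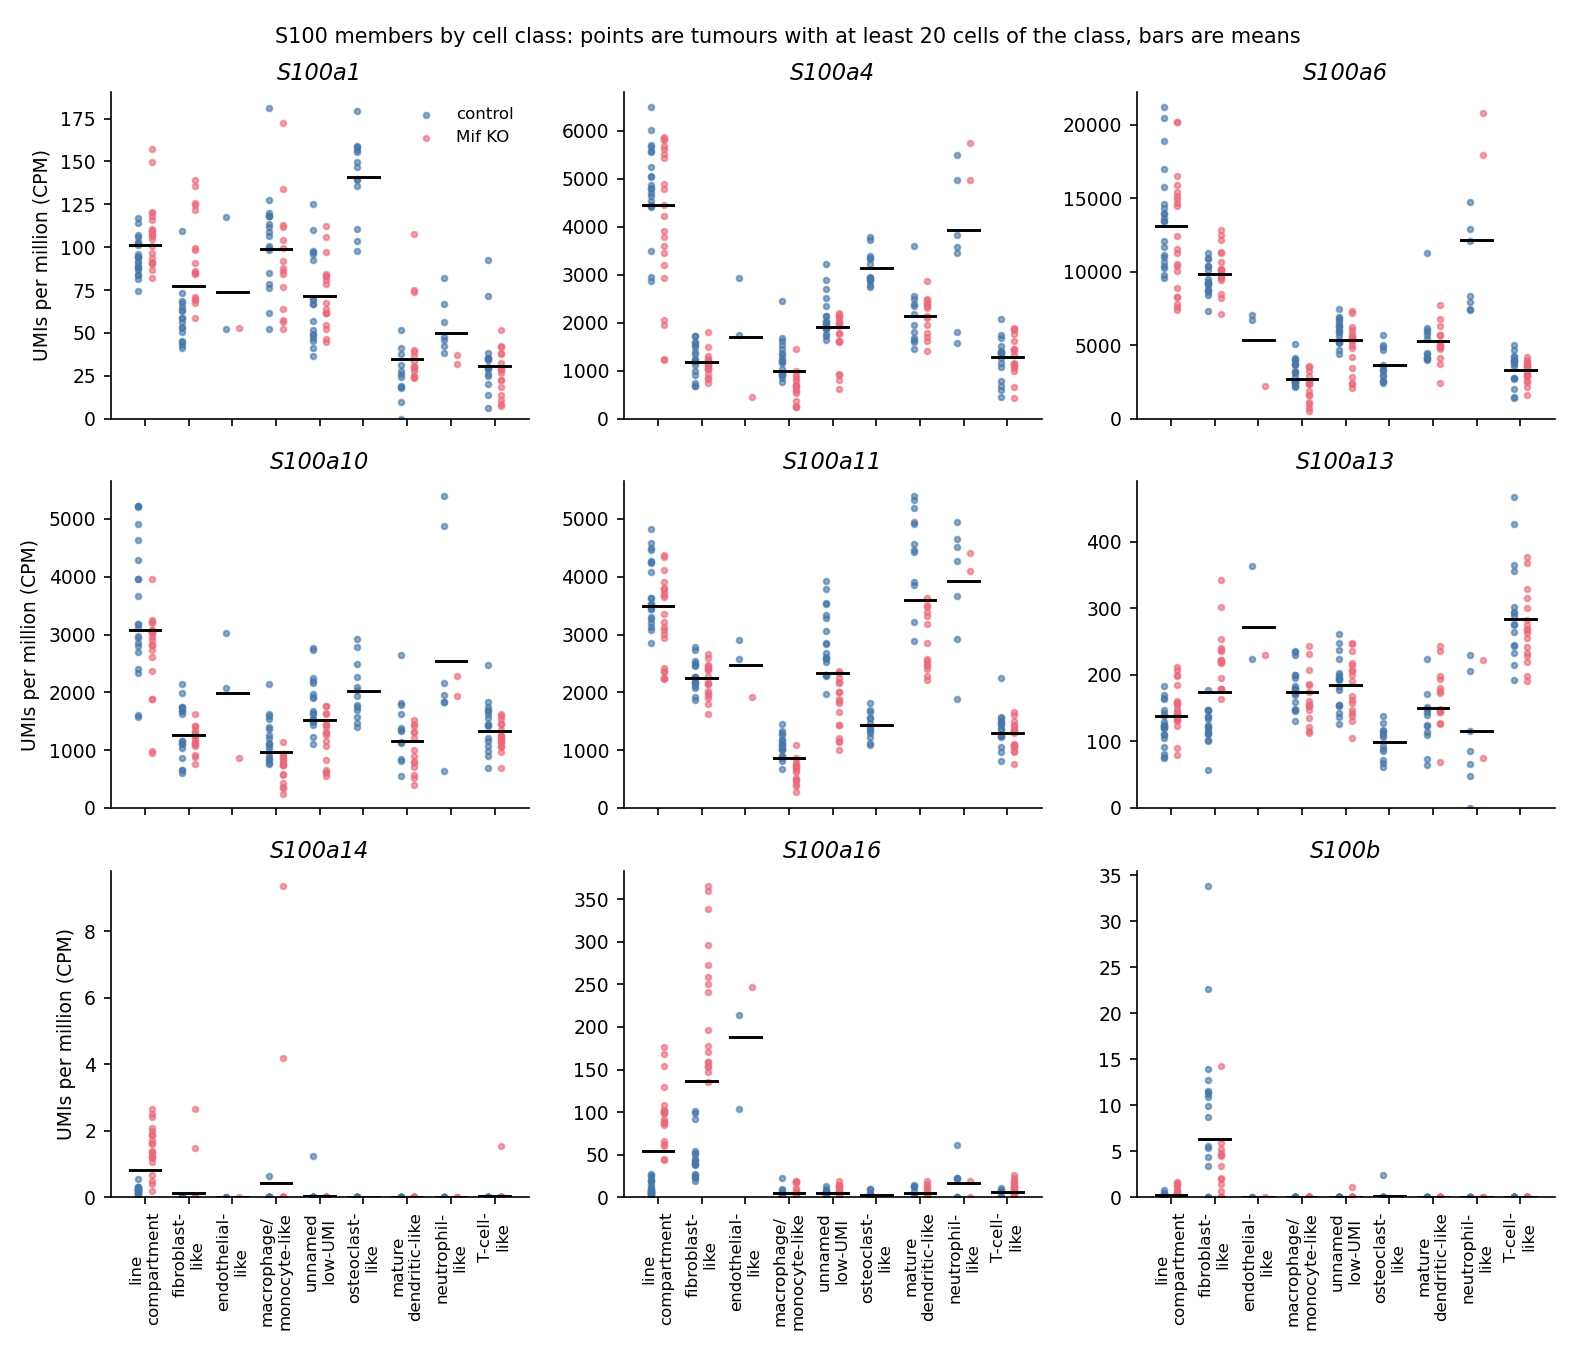
Level of each member in CPM, on a linear axis, by cell class, with 1 point per tumour and a bar for the mean of the class. Within each group S100a16 averaged more in fibroblast-like cells (226 and 48.0 CPM in Mif KO and control) than in the line compartment (98.0 and 11.4 CPM).

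In the fibroblast-like cells, too, S100a16 was higher in Mif KO tumours. This contrast was added after its values were seen, on the same tumours on which the gene had been selected but in other cells, and is therefore given as a description without p-values. Mif KO tumours held 226 ± 78.7 CPM (SD, n = 17), from 135.5 over a median of 197 to 365 CPM. Control tumours held 48.0 ± 25.9 CPM (SD, n = 17), from 18.9 over a median of 41.5 to 102 CPM. Every Mif KO tumour lay above every control tumour, from 1576 and 430 UMIs. The log2 difference was 2.29 (SE 0.19), or 4.88-fold. S100a13 was higher by 0.90 (SE 0.10), at 226 ± 44.9 against 124 ± 26.1 CPM (SD, n = 17 tumours each), and 16 of 17 Mif KO tumours lay above every control tumour. S100a1 was higher by 0.68 (SE 0.11), at 94.9 CPM (58.9 to 139) against 59.6 CPM (40.9 to 109), and the groups overlapped. S100a6, S100a4, S100a10 and S100a11 had log2 differences of -0.10 to 0.15. S100a14 and S100b were too low to be tested, with 2 UMIs of S100a14 in all.

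In fibroblast-like cells edgeR called 3 of the 7 members and 20.7% of all genes, and the 10 genes whose groups did not overlap are 0.161% of the 6221 tested. Over 13 alternative settings the log2 difference was 2.05 to 2.67 for S100a16, 0.75 to 0.99 for S100a13 and 0.52 to 0.79 for S100a1, which was called in 10 of the 13, but not in the mixed libraries alone, with library as a term or with 1 sum per line. The level in fibroblast-like cells was above that in the line compartment of the same tumour in all 34 tumours, with a median ratio of 2.33 in Mif KO and 3.89 in control. Mif itself differed little between the lines in these cells, with means of 1348 and 1317 CPM in control lines 15 and 18 and 1328 and 1172 CPM in Mif KO lines 19 and 24. Levels of fibroblast markers in the class differed between the lines. Dcn, a fibroblast proteoglycan, averaged 4891 and 4402 CPM in lines 15 and 18 and 3058 and 2201 CPM in lines 19 and 24. Col3a1, a fibrillar collagen, averaged 2727, 3242, 4863 and 5563 CPM in the same order. Cd34, a marker of adventitial fibroblasts, stood at 7.20, 11.7, 48.5 and 50.7 CPM. The part of that difference in the S100a16 values was not tested, and shifts in the kinds of fibroblast cannot be told apart from a change within them.

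In macrophage/monocyte-like cells S100a14, S100a16 and S100b were too low to be tested, and 4 of the 6 other members were lower in Mif KO tumours, where 31.7% of all genes were called. S100a4 stood at 660 CPM in 15 Mif KO tumours and 1253 CPM in 18 control tumours, a log2 difference of -0.85 (SE 0.18, edgeR adjusted p = 0.000276). S100a10, S100a11 and S100a6 were lower by -0.74, -0.68 and -0.53 (edgeR adjusted p = 0.000154, 2.35e-05 and 0.0114). By line S100a6 averaged 2770 and 3593 CPM in control lines 15 and 18, and 2864 and 1210 CPM in Mif KO lines 19 and 24. Line 19 thus lay above control line 15. S100a4, S100a10 and S100a11 averaged less in both Mif KO lines than in both control lines, and least in line 24. Of the 15 partners, 6 were lower, with Anxa2 at -1.07, Anxa1 at -0.90, Ahnak at -0.73, Trp53 at -0.46, Anxa5 at -0.31 and Myh9 at -0.29, and 3 were higher, with Mdm2 at 0.82, Atp2a2 at 0.50 and Cacybp at 0.29. Without Mif KO line 24, 1 member was called, and in the mixed libraries alone none were, where edgeR called 169 of 6235 genes. With 1 sum per line none were called either. Fewer members were called with library as a term, and with the unnamed low-UMI cells added, which held macrophage/monocyte markers. Calls over all genes with these settings are not given here. All 4 genes are abundant in the line compartment, and the part of free RNA in these differences was not tested. In T-cell-like cells edgeR and DESeq2 called 0 of the 5 members high enough to be tested, with log2 differences of -0.16 to 0.09 and edgeR adjusted p from 0.339 to 0.755, where 15.2% of all genes were called in edgeR, and none of the 5 had an unadjusted p under 0.05.

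The S100a16 values of the line compartment are split here by cluster and by share of cells. These are the cells in which the gene was selected as higher in the Mif KO lines. The values describe that difference and are no further support for it. How many other genes differ in this way within clusters is not given. Cells fell into 11 clusters, of which 10 could be compared, 6 with both Mif KO lines and 4 with 1 of them. In these 10 each Mif KO line present was above both control lines. In cluster 11 the Mif KO lines held 30.9 to 44.4 CPM and the control lines 1.06 to 2.77 CPM, and in cluster 2 they held 75.1 to 197 and 15.3 to 15.7 CPM. Cluster 10 had the highest level of each line present, at 247 CPM in Mif KO line 24 and 54.4 to 55.0 CPM in the control lines. Those control values lay above the Mif KO values of cluster 11 and of cluster 0 (29.8 to 37.3 CPM). To compare shares of cells at a fixed depth, each cell was thinned to 1000 UMIs, which left out 74, 462, 138 and 268 shallower cells of lines 15, 18, 19 and 24. A UMI of S100a16 was then seen in a median of 0.656% and 1.32% of cells in the tumours of control lines 15 and 18, and in 8.09% and 9.82% in Mif KO lines 19 and 24. Without thinning the medians were 6.16%, 5.92%, 43.3% and 39.4%. Median depth was 5201 to 9835 UMIs per line cell and 1205 to 1690 per T-cell-like cell. Thinned T-cell-like cells had a median of 0% in both control lines and of 1.05% and 0.642% in Mif KO lines 19 and 24. Whether these cells make the gene was not tested.

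The genes whose levels ran most like S100a16 among tumours of the same line and kind of library were Cd248 (r = 0.936), Selenbp1 (r = 0.924), Fgfr1 (r = 0.922), Tjp1 (r = 0.918) and Sod3 (r = 0.909), of 6641 genes over 42 tumours. The ranking covered genes with a mean log2 CPM of at least 4. The 42 tumours share days and libraries, and the r values are a description. Selenbp1, Fgfr1 and Cd248 were also among the leading genes of cluster 10, where S100a16 was highest. The part of that cluster in the r values was not tested. Cd248, a surface protein of stromal cells, rose by 1.60 from day 6 to day 16 on the log2 scale, and differed by 0.08 between Mif KO and control tumours. Fgfr1, a fibroblast growth factor receptor, rose by 3.52 and differed by 1.90 between the groups. Of the members, S100a13 ran most like S100a16 (r = 0.798), followed by S100a14 (r = 0.520) and S100a4 (r = 0.467). For S100a11 (r = -0.103) and S100a6 (r = -0.115) the pooled value joined opposite signs, as it did for S100a1 (r = 0.314) and S100a10 (r = 0.254). S100a11 had r = -0.645 and -0.662 in control lines 15 and 18 but 0.698 and 0.552 in Mif KO lines 19 and 24, and S100a6 had r = -0.533, -0.707, 0.576 and 0.455 in the same order. S100a1 was negative in line 24 alone (r = -0.497) and S100a10 in line 18 alone (r = -0.373). S100a13 had r = 0.748 to 0.929 in the 4 lines.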

How the data were processed

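Droplet libraries (10x 5′ v2 with TotalSeq-C hashtags) were sorted for live cells, per the labels. The deposited values are whole UMI counts per gene or hashtag and cell, made by the authors with Cell Ranger 6.0.0 on mm10, per the submitters' processing notes. Members and lists were chosen with earlier results of these data known, and the fibroblast-like contrast was added after its values were seen. Named outside the members were genes of fixed lists and the 5 genes most like S100a16. The genes apart between the groups in fibroblast-like cells were named after their values were seen. Others (endothelial and stromal markers, Mif) check the cells.

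Barcodes with 300 or more genes and no more than 15% of UMIs from mitochondrial genes were kept (163866 of 176381), hashtags were called with HTODemux (Seurat 5.3.0), and 100459 singlets remained. Hashtag doublets made up 17.9% to 30.9% of cells in a library and were removed, 2 of 47 hashtags were too rare to use (a share below 0.1% in the library), and libraries shared 3.41% to 4.83% of the barcodes of the smaller one. All kept cells, hashtag doublets included, were clustered (scanpy 1.11.5, 2107 variable genes, 30 components, 15 neighbours, resolution 1.0, 27 clusters). Clusters were named from listed markers. Hashtag doublets and cells without a hashtag call were left out after clustering, and clusters made mostly of hashtag doublets were not used. Libraries held 151385933 to 239699029 UMIs, with a median of 3072 to 9122 per cell.

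Counts were summed per tumour and class with at least 20 cells and tested over all genes with edgeR 4.0.16 (quasi-likelihood, TMM, Benjamini-Hochberg adjusted p under 0.05, R 4.3.3). The fits were tested on simulated data. DESeq2 1.42.0, other filters, hashtag calls and cell cutoffs, library subsets and each line left out were alternatives. For likeness, the mean of each line within a kind of library was subtracted from log2 CPM. Promoters are RefSeq's (GRCm38.p6), and 99.6% of gene identifiers matched GENCODE M21.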

Additional observations from a re-analysis of the deposited data

Results flagged for a closer look

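In the line compartment the change from day 6 to day 16 differed between Mif KO and control tumours for 3 of 9 members in edgeR. The log2 differences were -1.47 for S100a16, -0.43 for S100a13 and 0.50 for S100a10. Of all genes, 10.6% were called in this contrast. S100a16 kept its call in 13 of 13 alternative settings, S100a13 in 8 of 13 and S100a10 in 7 of 13. In either kind of library alone, S100a16 was the only member called. Of 36 groups of tumours examined for a value far from the others, 1 had such a value: S100b at 0.1064 CPM in the highest of 8 tumours of line 15 in its own library. Chance gives such a value in about 1 in 20 groups, or 1.8 here, and line 15 had 2 S100b UMIs in all.

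The WT tumours, 1 each of day 6, 10 and 16 in a mixed library, belong to no group and gave values above every control tumour of the same day for several members. S100a16 stood at 15.63, 26.2 and 50.34 CPM on the 3 days, above every control tumour and below every Mif KO tumour of its day. S100a13 stood at 163.2, 167.9 and 200.5 CPM, S100a1 at 108.5 CPM on day 6 and 129.2 CPM on day 16. S100a11 at 3462 CPM and S100a14 at 0.4494 CPM were above the control tumours on day 16, whereas on day 6 S100a11 at 4054 CPM was below every control tumour (4257 to 4823 CPM). Some margins were small, with a highest control value of 3446 CPM for S100a11 on day 16 and of 164.2 CPM for S100a13 on day 10. How many of all genes lay outside the control range in these tumours is not given here. No test was made with 1 tumour a day, and Mif stood at 2245 to 2618 CPM in the WT tumours.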

How the results depend on the processing

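Of 111 alternative values of the counts of members called, thinned shares and levels, 92 kept within 1.5 times of the value given, and 19 moved. For single members, 713 of 795 kept their side of the threshold, 62 lost it and 18 passed it. Among the 713, 39 changed sign while called in neither fit. The sign of 2 called members reversed between Mif KO and control: S100a4 without line 24 (0.01503) and S100a10 without line 18 (0.01111). With a line left out, the log2 difference ran from -0.6071 to 0.01503 for S100a4 and from -0.5993 to 0.01111 for S100a10.

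In the line compartment 7 members were called between Mif KO and control, but 2 in the mixed libraries alone, 2 with library as a term and 0 with 1 sum per line, and 4 to 8 with a line left out. With a line left out, 3 to 6 were called from day 6 to 16, 6 to 7 from day 0 to 6 and 1 to 3 for the difference in day change. Over all genes, a line left out gave 4410 to 7473 calls between Mif KO and control and 2645 to 5330 from day 6 to 16. It gave 4804 to 6691 from day 0 to 6 and 276 to 1380 for the difference in day change. The mixed libraries alone gave 2 from day 6 to 16. For the difference in day change, the other hashtag call, single-line libraries and mixed libraries each gave 1. In macrophage/monocyte-like cells the mixed libraries gave 0, library as a term 2, 1 sum per line 0 (edgeR called 48 of 10799 genes), the low-UMI cluster added 2, and a line left out 1 to 5. In T-cell-like cells 1 was called without the count filter, and 0 to 0 with a line left out. In fibroblast-like cells a line left out gave 3 to 5, with 5 without line 15, where S100a10 passed at -0.49. Over all genes, a line left out gave 351 to 2003 calls in macrophage/monocyte-like, 152 to 648 in T-cell-like and 652 to 1612 in fibroblast-like cells. For several other fits the calls over all genes are not given here. These are the library subsets of the line compartment, library as a term, the other hashtag call, the added low-UMI cluster and the missing count filter. In these fits a change in members called cannot be told from a change over all genes. The mean share of line cells with an S100a16 UMI in Mif KO minus that in control was 8.05 percentage points at 1000 UMIs, 15.3 at 2000 UMIs and 35.6 without thinning. The cause of these moves was not tested.

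No paired analysis was possible by replicate number because the groups share no replicate number, since the numbers name lines. Some Mif KO and control tumours of the same day shared a mixed library, which the fits with library as a term use, and no fit paired by library and day was made. With 2 lines a group, differences between lines and between groups rest on few lines, and S100a14 and S100b rest on few UMIs.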

Other observations

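In the fibroblast-like cells of the WT tumours S100a16 stood at 71.8 CPM on day 6 (91 cells), 101.8 CPM on day 10 (49 cells) and 239 CPM on day 16 (55 cells). In the control tumours of the lines the means of those days were 49.0, 33.8 and 63.6 CPM, and in the Mif KO tumours 213, 278 and 184 CPM. S100b went the other way from S100a16 in these cells, at 2.87 ± 3.64 CPM in Mif KO and 9.74 ± 8.56 CPM in control tumours (SD, n = 17 each), from 18 and 89 UMIs, a difference that was not tested. The 10 genes whose fibroblast-like values did not overlap between the groups were Cav1, Col15a1, Kcnk10, Plcb1, Rab3c, S100a16, Stc1, Tnfsf11, Tspo and Twist2, named after their values were seen.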
